A study of Laccaria bicolor with 4 samples.

Results

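Gene models that lie on opposite strands of the *L. bicolor* genome and share at least 1 bp between start and end were examined as pairs. They were found from the scaffold, strand, start and end that the deposited tables give for each gene in the V2 genome. In all, 1133 pairs were found, formed by 2145 of the 23125 annotated genes (9.28%). A pair was called tail-to-tail where the models overlapped at their 3′ ends, head-to-head where they overlapped at their 5′ ends, and nested where one model lay within the extent of the other. The rule used positions only and no expression value.

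RNA was sequenced after removal of ribosomal RNA, from the fraction above 200 nt, in *L. bicolor*, a basidiomycete that forms ectomycorrhiza with tree roots. All libraries came from mycelium of the wild type strain S238N-H82, which is haploid and monokaryotic, grown for 8 weeks in liquid culture before harvest. Untreated mycelium gave 2 libraries, and 2 more came from mycelium that received vitamin C at 5 mM over 2 days. The submitters call the libraries of a condition biological replicates, and no source ties equal replicate numbers to 1 culture or day. Vitamin C is a reducing agent that assists iron-dependent dioxygenases such as the TET enzymes. Levels are given as TPM, the length-scaled share of a library, and a gene was called expressed at a mean TPM above 0.05. Values of all 4 libraries are listed with the untreated replicates 1 and 2 first and the vitamin C replicates 1 and 2 after them. As whole mycelium was used, fewer cells with a transcript and less transcript per cell cannot be told apart.

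Fungal genomes are compact, and convergent neighbours often run into each other in their 3′ untranslated regions. A transcript that covers part of a gene in the opposite orientation is called a natural antisense transcript. Such transcripts are known from many fungi, and in budding yeast they are known to lower the transcription of the opposite gene at some loci and to have no measured effect at others.

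The pairs can only be read within the limits of the counting. The kit used for the libraries keeps the strand of the RNA, but the strand setting of StringTie was not stated in the sources read here. Without strand, reads over the shared stretch of an overlapping pair cannot be told apart. The spans run from start to end and include introns, and exon positions were not used here, so an overlap of spans need not be an overlap of exons. An exact 0 can also be a failed estimate, and such a gene is described as listed at 0. No table pairs the gene identifiers with names, so pairs are given by their position on a linkage group (LG) or scaffold, and no function can be attached to them.

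Tail-to-tail was the most frequent arrangement, with 712 pairs (62.8%). Nested pairs numbered 307 (27.1%) and head-to-head pairs 114 (10.1%). The overlap spanned 1 to 5870 bp with a median of 358 bp. Its median was 219 bp in tail-to-tail pairs, 68.5 bp in head-to-head pairs and 881 bp in nested pairs. Relative to the shorter model, the median overlap was 21.0% in tail-to-tail and 4.79% in head-to-head pairs, and it is 100% by definition in nested ones. There were 526 pairs with at least 50% of the shorter model within the overlap, among them 198 tail-to-tail and 21 head-to-head pairs. An overlap of 1000 bp or more was found in 84 tail-to-tail, 2 head-to-head and 138 nested pairs.

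The shortest overlaps were unevenly distributed over single lengths. In 76 pairs the models shared 10 bp or less, 47 of them tail-to-tail and 29 head-to-head. Head-to-head models shared exactly 2 bp in 14 pairs and exactly 4 bp in none. Tail-to-tail models shared 2 bp in 9 pairs and 4 bp in 12 pairs. Each of the other lengths from 1 to 10 bp was found in at most 4 head-to-head and 7 tail-to-tail pairs.

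**Figure D1:**
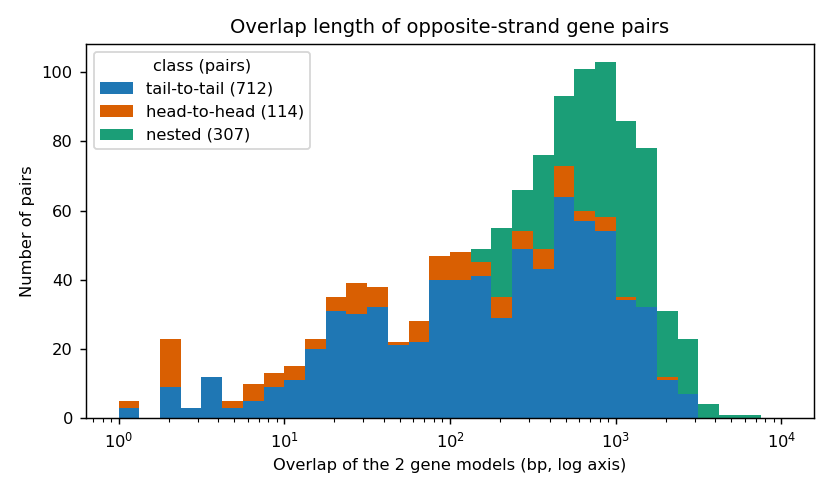
Overlap length of the 1133 opposite-strand pairs in bp on a log axis, against the number of pairs, stacked by class. Tail-to-tail pairs (median 219 bp) cover the whole range up to 3125 bp, head-to-head pairs (median 68.5 bp) are mostly short, and nested pairs begin at 150 bp.

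Most genes overlapped a single partner. Of the 2145 genes, 2039 belonged to 1 pair, 94 to 2 pairs, 9 to 3 pairs and 3 to 4 pairs. Pairs that share a gene are not independent, and linking them gave 1013 groups, 923 of which held 2 genes. The largest held 8 genes. In 6 nested pairs both models had the same start and end, and in another 35 they shared a single edge. The median span of the paired genes was 1599 bp, and that of the other genes was 1154 bp.

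The pairs were not evenly spread over the genome. Among the 13 linkage groups and scaffolds with at least 500 genes, the share of genes in a pair went from 4.29% on LG 5 (53 of 1235 genes) to 17.7% on scaffold 12 (117 of 662 genes). On LG 5, 42.3% of all genes were expressed in untreated mycelium, and on scaffold 12 the share was 83.8%. Across these 13 sequences the share of paired genes and the share of expressed genes had a Spearman correlation of 0.90, given as a description of 13 points from the same libraries. The expressed share counts all genes of a sequence, the paired ones included, and sequences with fewer than 500 genes were left out. No pair was found on 27 of the 54 sequences, which together hold 256 genes.

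Genes with an overlapping partner on the opposite strand were expressed more often than other genes. In the untreated libraries 1933 and 1949 of the 2145 paired genes were above 0.05 TPM (90.1% and 90.9%), and with vitamin C 1929 and 1919 (89.9% and 89.5%). Of the 20980 other genes, between 61.1% and 61.5% were above the threshold in each library, so that the 4 libraries did not overlap between these sets of genes. The higher share was also seen at similar span. Among genes of 96 to 540 bp, 70.6% of the paired and 41.8% of the other genes were expressed in untreated mycelium. Among genes of 2285 to 16073 bp these shares were 96.6% and 72.1%. Genes are not replicates, so no test was made of these shares. The other genes include close neighbours, same-strand overlaps and genes far from a neighbour. In untreated mycelium neither partner was expressed in 5.12% of the pairs, 8.56% of same-strand overlaps and 34.3% of opposite-strand neighbours over 500 bp apart. Closer neighbours gave 19.6% tail-to-tail and 16.9% head-to-head, so part of the contrast with other genes was shared by these sets.

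Paired genes also had higher levels where they were expressed. They had a median TPM of 19.8, 22.7, 21.2 and 18.8 in the 4 libraries, whereas that of other expressed genes was 13.6, 16.0, 15.7 and 13.5. Each library gave the higher median for the paired genes, but these levels were not compared at similar span. Only 152 of them (7.09%) were listed at 0 in all 4 libraries, in contrast to 7407 of the other genes (35.3%). The libraries rest on 4.20, 4.40, 5.65 and 4.27 Gb of aligned bases, which gave the expressed paired genes a median coverage of 56.2, 64.2, 74.7 and 51.8.

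In most pairs transcripts were assigned to both strands. By the mean of the untreated libraries both partners were expressed in 994 pairs (87.7%), a single partner in 81 (7.15%) and neither in 58 (5.12%). Both were expressed in 645 of the tail-to-tail pairs (90.6%), in 263 of the nested pairs (85.7%) and in 86 of the head-to-head pairs (75.4%). For comparison, neighbours on opposite strands with a gap of at most 500 bp were both expressed in 70.1% of 2382 tail-to-tail and 75.8% of 2513 head-to-head cases. At gaps above 500 bp the share was 45.2%, and in 853 pairs that overlap on the same strand it was 74.9%. The head-to-head pairs thus had nearly the share of their closest non-overlapping counterparts, while the tail-to-tail pairs were above theirs.

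**Figure D2:**
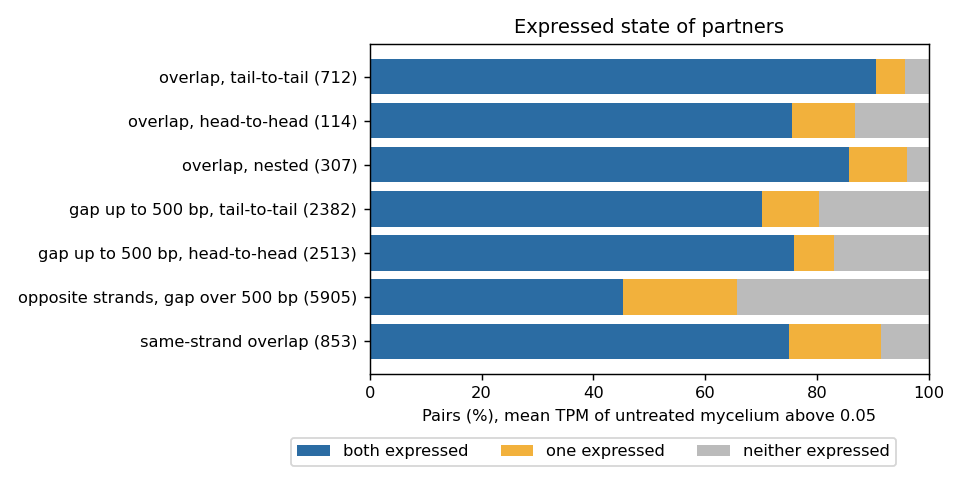
Share of pairs (%) with both, one or neither partner at a mean untreated TPM above 0.05, for overlapping pairs of 3 classes, close and distant opposite-strand neighbours and same-strand overlaps, with the number of pairs in parentheses. Both partners were expressed in 90.6% of tail-to-tail overlaps and in 45.2% of opposite-strand neighbours more than 500 bp apart.

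In tail-to-tail pairs the share with both partners expressed was higher at longer overlaps. It was 81.0% at 1 to 50 bp, 89.6% at 51 to 200 bp, 91.6% at 201 to 500 bp and 97.2% at 501 to 1000 bp, and all 84 pairs with more than 1000 bp had both partners expressed. Nested pairs showed the same order, from 69.4% at up to 500 bp to 94.9% above 1000 bp. A longer overlap also requires longer models, and among the paired genes longer models were expressed more often. Neither the part of model length nor that of the unknown strand setting in these shares was tested.

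The expressed state of the pairs differed little between conditions. Both partners were above 0.05 TPM in 971 and 985 pairs of the untreated libraries and in 964 and 956 pairs of the vitamin C libraries. The conditions did not overlap, but an exact permutation test over the libraries gave p = 0.333 (two-sided), which is the smallest value that 2 against 2 libraries allow. Between the condition means, 970 pairs kept both partners above the threshold, 24 passed from both to a single partner and 9 in the opposite direction. In 69 pairs the same partner was the only one expressed in both conditions, and none of the pairs exchanged it. The state of 45 pairs differed between the untreated replicates and that of 52 pairs between the vitamin C replicates, while libraries of different conditions differed in 45 to 58 pairs.

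Where a single partner was expressed, the silent one was usually the shorter model. This was so in 60 of the 81 pairs of untreated mycelium, with a median span of 641 bp for the silent and 1578 bp for the expressed partner. The silent partner was listed at 0 in both untreated libraries in 64 of these pairs. The expressed partner had a median TPM of 9.47 and reached 10 TPM in 39 pairs. With vitamin C the silent model was the shorter in 72 of 96 pairs. Short models were also less often expressed among genes without such a partner. In untreated mycelium 41.8% of these were expressed at 96 to 540 bp and 72.1% at 2285 to 16073 bp. The part of length in the silent partners was not tested.

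A few pairs combined a well expressed gene with a partner listed at 0. In 22 pairs (11 tail-to-tail, 4 head-to-head and 7 nested) a partner was listed at 0 in all 4 libraries while the other had at least 10 TPM in all 4. In 6 of them the other had at least 100 TPM. The highest was a nested pair on LG 7. The minus-strand model from 51569 to 53047 had 706, 499, 690 and 784 TPM, and the plus-strand model within it, from 51583 to 51911, was listed at 0 in all libraries. All 329 bp of the inner model lie within a gene with high signal, and whether its 0 values are failed estimates was not tested.

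The same was found in the other arrangements. Tail-to-tail on LG 1, the plus-strand model from 7939960 to 7942040 had 321, 282, 379 and 351 TPM and the minus-strand model from 7941834 to 7942545, with 207 bp shared, was listed at 0. On scaffold 22 the plus-strand model from 377831 to 380261 had 230, 224, 292 and 304 TPM beside a minus-strand model from 380239 to 380406 at 0. In both pairs the expressed partner had higher values in both vitamin C libraries than in both untreated ones, but neither change passed the limma test. A plus-strand gene on LG 7 from 747210 to 747979, with 184, 315, 477 and 339 TPM, had a pair of adjoining partners listed at 0 in the first part of its span. It overlapped head-to-head with the model from 747063 to 747344 (135 bp) and contained the model from 747345 to 747581 (237 bp). Head-to-head on scaffold 36, the plus-strand model from 13351 to 18504 had 82.4, 52.7, 104 and 103 TPM, and the model from 12867 to 13440 was at 0 with 90 bp shared.

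Across pairs, the levels of overlapping partners were only weakly related. Over all 1133 pairs the Spearman correlation of the partners' TPM was 0.27, 0.27, 0.25 and 0.25 in the 4 libraries. It was 0.45, 0.46, 0.45 and 0.43 in head-to-head pairs, 0.28 or 0.29 in tail-to-tail pairs and between -0.01 and 0.05 in nested pairs. These values are descriptions across pairs, which share their library and in part their genes, and no p-value was attached to them. Opposite-strand neighbours with a gap of at most 500 bp gave 0.52 to 0.55 tail-to-tail and 0.56 to 0.59 head-to-head.

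The gap between overlapping and neighbouring pairs was mostly lost when pairs with a silent partner were left out. When only pairs with both partners expressed were used, the correlation in the libraries was 0.14 to 0.18 in tail-to-tail overlaps and 0.11 to 0.14 in tail-to-tail neighbours. It was 0.19 to 0.28 in head-to-head overlaps and 0.20 to 0.23 in head-to-head neighbours. Nested pairs gave values from -0.09 to -0.06, and same-strand overlaps gave 0.17 to 0.20. Overlapping and close neighbouring pairs therefore had similar values within each orientation once both partners were expressed, and all were small.

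**Figure D3:**
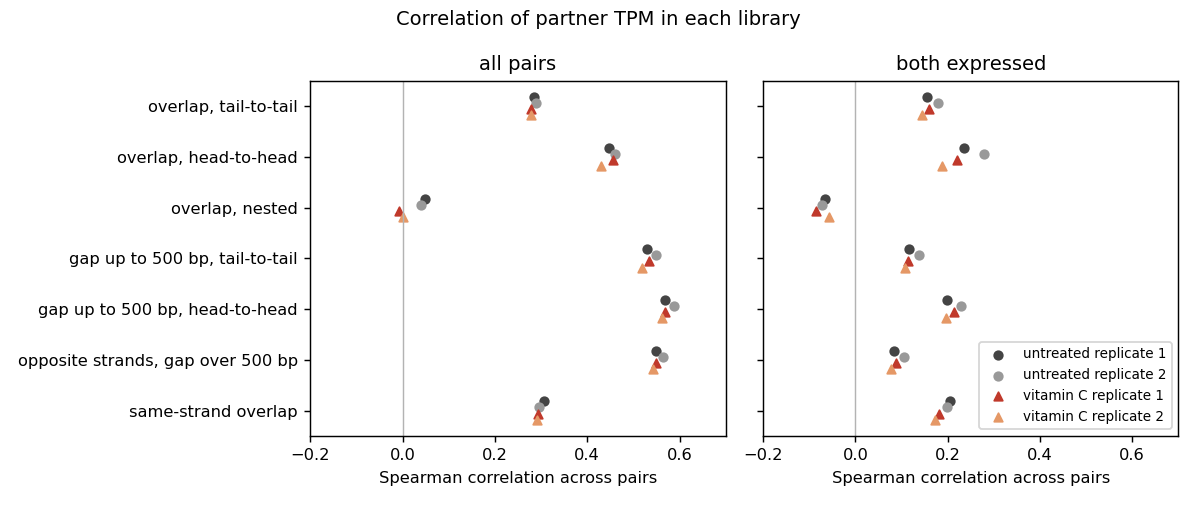
Spearman correlation of partner TPM across pairs in each library (circles, untreated, triangles, vitamin C), for all pairs (left) and for pairs with both partners expressed (right). Over all pairs the nested class lies near 0 and the neighbours at 0.52 to 0.59, and among pairs with both partners expressed every set lies between -0.09 and 0.28.

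Tail-to-tail pairs were also described by the length of the overlap, without a test between the ranges. Among those with both partners expressed in untreated mycelium, the Spearman correlation was 0.16 at 1 to 50 bp (145 pairs), 0.29 at 51 to 200 bp (147 pairs), 0.18 at 201 to 500 bp (131 pairs), 0.10 at 501 to 1000 bp (138 pairs) and -0.01 above 1000 bp (84 pairs). The size of the difference between partners varied little over the same ranges, with a median absolute log2 ratio of 1.99, 2.18, 2.15, 1.94 and 1.93. Nested pairs had values from -0.10 to -0.06 in all 3 ranges of overlap. Head-to-head pairs with up to 50 bp gave 0.29 (41 pairs) and those with more gave 0.21 (45 pairs).

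**Figure D4:**
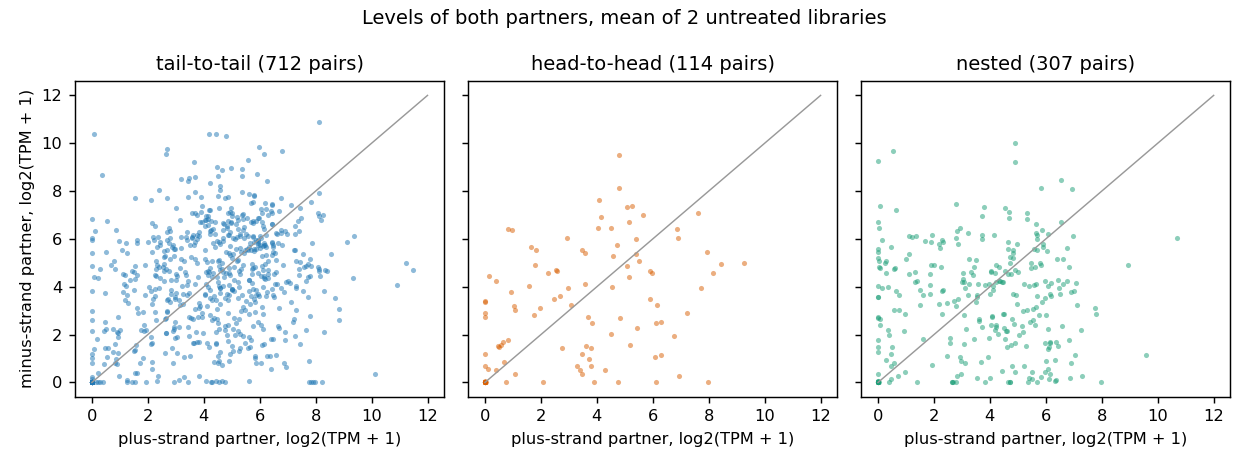
Mean untreated level of the plus-strand partner against that of the minus-strand partner, both as log2(TPM + 1), for each pair of the 3 classes, with a grey line at equal levels. The points spread on both sides of the line, with a Spearman correlation of 0.29 in tail-to-tail, 0.47 in head-to-head and 0.05 in nested pairs.

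Partners usually differed several-fold, and the order was stable over libraries. In the 970 pairs with both partners expressed in both conditions the median ratio of the higher to the lower partner was 4.56 (interquartile range 1.95 to 11.9). The same partner was the higher one in all 4 libraries in 853 of them (87.9%), close to the 89.8% and 88.9% of tail-to-tail and head-to-head neighbours. The ratio was under 2 in 250 pairs, at least 10 in 284 and at least 100 in 40. Its median was 4.00 in tail-to-tail, 5.99 in head-to-head and 5.47 in nested pairs. Neighbours gave 4.83 tail-to-tail and 3.92 head-to-head. The higher partner had a median of 46.6 TPM and the lower one of 8.71 TPM.

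High levels of both partners were rare. By the mean of the 4 libraries both partners reached 1 TPM in 852 pairs (75.2%), 10 TPM in 454 (40.1%) and 100 TPM in 15 (1.32%). Opposite-strand neighbours within 500 bp reached these levels in 62.6%, 35.1% and 2.55% of 4895 pairs. Over all classes the overlapping pairs were thus above the neighbours at 1 and 10 TPM and below them at 100 TPM. The classes differed, and only tail-to-tail pairs were above the neighbours at both 1 TPM (82.0%) and 10 TPM (47.2%). Nested pairs were above them at 1 TPM (66.1%) and below at 10 TPM (28.7%). Head-to-head pairs were below them at both levels (57.0% and 26.3%). Of the 226 pairs with a partner at 100 TPM or more, the other had a median of 9.50% of that level, and in 29 pairs it had less than 1%. In the 11 pairs with a partner at 1000 TPM or more the other had between 0.00254% and 12.7% of its level. It was at 1 TPM or more in 9 of these. Choosing pairs for a high partner favours a low percentage in the other. Neighbours were not described in this way, so these percentages cannot be read as a trait of the overlap.

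The tail-to-tail pair with the highest lower partner was on scaffold 11. The minus-strand model from 1794226 to 1794935 had 1861, 1905, 1907 and 2123 TPM, and the plus-strand model from 1793140 to 1794259 had 213, 341, 242 and 191 TPM, with 34 bp shared. Next was a pair on LG 1 that shared 99 bp. Its plus-strand model from 4749887 to 4750843 had 321, 233, 273 and 313 TPM and its minus-strand model from 4750745 to 4751272 had 245, 233, 242 and 261 TPM. The partners on LG 1 overlapped in level in the 4 libraries, and those on scaffold 11 were 7.90-fold apart.

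Among head-to-head pairs, the models on LG 2 from 2235532 to 2238507 (plus strand) and from 2234996 to 2235564 (minus strand) shared 33 bp. The former had 147, 246, 254 and 169 TPM and the latter 131, 136, 107 and 109 TPM. On LG 6 a single base was shared by the plus-strand model from 2210663 to 2213938, with 90.6, 141, 128 and 105 TPM, and the minus-strand model from 2209224 to 2210663, with 75.7, 90.8, 141 and 102 TPM. The order of the partners on LG 6 was not the same in all libraries.

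In the nested class the pair with the highest lower partner was on LG 3. The inner plus-strand model from 3714367 to 3715195 had 96.6, 86.9, 155 and 123 TPM, and the outer minus-strand model from 3714293 to 3718180 had 110, 96.3, 114 and 113 TPM. The inner model was the lower one in both untreated libraries and the higher one in both vitamin C libraries. A pair on scaffold 12 had an inner plus-strand model from 1276680 to 1277344 with 106, 136, 73.2 and 61.3 TPM and an outer minus-strand model from 1276650 to 1278898 with 266, 273, 279 and 268 TPM. The outer level was nearly constant there, and the inner levels did not overlap between conditions, although the ratio did not pass the test with vitamin C (change of the log2 ratio -0.86 with an SE of 0.22, limma with Benjamini-Hochberg, adjusted p = 0.207).

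Long overlaps were found with equal and with unequal levels. The longest tail-to-tail overlap with both partners expressed was 3125 bp on LG 3. The plus-strand model from 2029117 to 2032245 lies almost wholly within the minus-strand model from 2029121 to 2035968. It had 15.6, 16.1, 12 and 12.7 TPM, and the minus-strand model had 16.4, 16.7, 18.9 and 17.3 TPM. The second longest, 2806 bp on scaffold 12, joined the plus-strand model from 779955 to 783674 with 14.0, 18.4, 12.3 and 11.9 TPM and the minus-strand model from 780869 to 783756 with 36.6, 26.4, 24.6 and 32.8 TPM. In both pairs the minus-strand partner was the higher one in every library.

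Head-to-head, 1047 bp were shared on LG 10 by the plus-strand model from 2829841 to 2833202, with 39.6, 43.4, 40.3 and 36.2 TPM, and the minus-strand model from 2829664 to 2830887, with 64.1, 60.1, 64.1 and 59.2 TPM. On LG 3 the models from 3597397 to 3600287 (plus strand) and from 3596457 to 3598353 (minus strand) shared 957 bp and were 40.2-fold apart. The former had 113, 99.9, 134 and 123 TPM and the latter 2.41, 3.34, 3.13 and 2.78 TPM. In the nested class, 3702 bp were shared on LG 4 by the plus-strand model from 627712 to 636263 with 11.9, 12.4, 16.9 and 14.3 TPM and the minus-strand model from 632507 to 636208 with 3.57, 4.44, 4.44 and 3.54 TPM.

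The 6 pairs with the same start and end on both strands, singled out after their values were seen, had 1 locus annotated as 2 opposite genes. In 3 of them the strands differed clearly. On LG 9 from 1420007 to 1424334, which is also the longest nested overlap with both partners expressed, the plus strand had 43.7, 46.7, 49.4 and 51.5 TPM and the minus strand 6.12, 8.47, 8.47 and 7.79 TPM. On LG 1 from 7590654 to 7591742 the plus strand had 46.2, 51.3, 43.6 and 43.3 TPM and the minus strand 7.43, 8.30, 4.32 and 5.49 TPM. On scaffold 16 from 687561 to 689912 the order was opposite, with 5.86, 7.57, 7.5 and 6.46 TPM on the plus strand and 83.6, 89.0, 114 and 93.6 TPM on the minus strand, a 13.9-fold difference. In these 3 pairs equal extents therefore did not go with equal values.

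In the other 3 the strands were closer. On LG 3 from 3568682 to 3571274 the plus strand had 30.7, 27.3, 25.7 and 26.8 TPM and the minus strand 22.9, 26.8, 19.2 and 22.1 TPM. On LG 6 from 1827829 to 1830954 the values were 10.9, 20.0, 20.6 and 11.8 TPM on the plus strand and 22.2, 26.6, 27.5 and 23.5 TPM on the minus strand. On scaffold 13 from 1161098 to 1163805 the plus strand had 36.2, 14.5, 38.8 and 33.1 TPM and the minus strand 20.6, 40.8, 29.9 and 30.5 TPM, so that untreated replicate 2 had the opposite order to the other libraries.

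In nested pairs the outer model was more often the higher one. Of the 301 nested pairs with unequal spans, the outer model was higher in all 4 libraries in 183, the inner model in 76, and 42 had no common order or equal values. The median TPM of inner models was 4.64 and 4.86 in untreated and 4.59 and 4.57 in vitamin C libraries, and that of outer models was 18.6, 21.4, 21.9 and 18. The median span was 866 bp for inner and 3783 bp for outer models, and genes of different length were compared on the length-scaled TPM. The outer model was at least 10 times as high as the inner in 78 of 258 pairs with both means above 0.05 TPM, and the inner at least 10 times as high as the outer in 22. In untreated mycelium 285 outer and 261 inner models were expressed. Where a single one was expressed it was the outer in 28 of 32 pairs. Inner models are the shorter ones by definition, and the part of length in these counts was not tested.

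Of the 269 distinct outer genes, 28 held at least 2 inner models. The 3 genes with 4 partners each, chosen after their values were seen, had low values. On LG 6 the plus-strand model from 2574781 to 2581375 and all of its partners were listed at 0, among them the longest overlap of all (5870 bp). On LG 5 the model from 3100010 to 3110288 was at 0, and its highest partner, from 3091320 to 3101938, had 1.51, 1.03, 1.63 and 1.43 TPM. On scaffold 21 the model from 17737 to 31193 had 0.402, 0.333, 0.708 and 0.540 TPM, and its highest partner, from 16588 to 17767, had 2.22, 1.60, 2.27 and 2.21 TPM. None of these outer models reached 1 TPM in a library.

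The pairs just inside and just outside the rule were compared without a test. There were 76 pairs with an overlap of 1 to 10 bp and 60 opposite-strand neighbours with a gap of 0 to 9 bp. Both partners were expressed in 72.4% of the former and 63.3% of the latter in untreated mycelium, and the median TPM was 10.2 and 10.6. Among pairs with both partners expressed the Spearman correlation was 0.26 (55 pairs) and -0.02 (38 pairs). The share of 72.4% was well under that of all overlapping pairs (87.7%). The classes were not mixed alike, since these 76 pairs were 47 tail-to-tail and 29 head-to-head, with none nested. Over all overlap lengths the share was 90.6% in tail-to-tail and 75.4% in head-to-head pairs. The part of the class mix was not tested.

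Single pairs at this edge had very different values. Of the pairs that share 1 bp, one on LG 5 (293256 to 295134 and 295134 to 299184) was listed at 0 on both strands. On LG 9 the plus-strand model from 1377152 to 1379705 had 150, 147, 228 and 166 TPM and the minus-strand model from 1375964 to 1377152 had 6.68, 6.27, 7.69 and 6.13 TPM. Of the adjoining models with no gap, those on LG 5 had 14.8, 11.4, 16.7 and 14.5 TPM (plus strand, 586829 to 587566) and 0 in every library (minus strand, 585746 to 586828). On LG 4 the plus-strand model from 3133811 to 3134627 had 1.27, 0, 0.512 and 0.949 TPM and the minus-strand model from 3133398 to 3133810 was at 0. On LG 10 the plus-strand model from 2647583 to 2648335 had 3.07, 6.01, 6.21 and 4.22 TPM and the minus-strand model from 2648336 to 2649093 had 57.1, 77.2, 60.9 and 51.2 TPM.

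To ask whether vitamin C changed the paired genes, both conditions were compared with limma on log2(TPM + 1) over 15107 genes, with p-values adjusted by Benjamini-Hochberg. Among the 1960 paired genes in the fit, 2 rose and 2 fell at an adjusted p under 0.05. Over all genes 7 rose (0.0463%) and 7 fell (0.0463%). The numbers of paired genes are too small to be read against these shares. When any 1 of the 4 libraries was left out, none of the paired genes passed. Without the filter on low values none of these 4 genes passed (limma with Benjamini-Hochberg, adjusted p from 0.123 to 0.396), and 1 other paired gene did.

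At an unadjusted p under 0.05, 62 paired genes were higher with vitamin C and 211 were lower. Over all genes 4.98% were higher and 8.13% were lower at that threshold, and among the paired genes 3.16% and 10.8%. The median change was -0.05 in paired genes and -0.02 over all genes, and single libraries moved it. When the libraries were left out in the order given above, the median over the paired genes was -0.14, 0.03, -0.13 and 0.00. Without the same libraries in turn, 57, 35, 15 and 51 genes were higher and 213, 116, 78 and 86 lower. Thus the lower direction was the more frequent in each of these fits, but its size depended on the libraries.

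The direction also differed by the span of the gene. Of the paired genes past the unadjusted threshold, 12% were higher among those of 96 to 540 bp and 57.4% among those of 2285 to 16073 bp. In other genes these shares were 24.8% and 76.1%. In each of the 5 span ranges the paired genes had the smaller share of higher genes. By class, 39 higher and 153 lower genes were in tail-to-tail, 8 and 9 in head-to-head and 18 and 55 in nested pairs, where a gene in pairs of 2 classes is counted in both.

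The strongest change of a paired gene was in a nested pair on LG 3. The outer gene gene_10008, on the plus strand from 4614767 to 4616612, had 7.81 and 8.81 TPM in untreated mycelium. It was listed at 0 in each vitamin C library. It fell by 3.22 on the log2(TPM + 1) scale (SE 0.22, limma with Benjamini-Hochberg, adjusted p = 0.0040). As the vitamin C libraries are at 0, this size depends on the pseudocount and was -6.39 with a pseudocount of 0.1. Its inner partner from 4615483 to 4615762 had 70.9, 77.5, 96.9 and 85.4 TPM and did not pass the test. The 280 bp of the inner model thus had values above 0 in libraries in which the surrounding gene was listed at 0. Whether these 0 values are failed estimates was not tested.

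Nested on LG 1, gene_5581 on the minus strand from 12460673 to 12465110 was listed at 0 in both untreated libraries and had 4.23 and 4.88 TPM with vitamin C. It rose by 2.47 on the log2(TPM + 1) scale (SE 0.20, limma with Benjamini-Hochberg, adjusted p = 0.0090), and by 5.54 with a pseudocount of 0.1. The model of 193 bp within it, from 12461706 to 12461898, was at 0 in all 4 libraries. The change of gene_5581 rests on untreated values listed at 0, and whether these are failed estimates was not tested.

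In the second nested pair on LG 1 both models start at 2750650. gene_1190, on the plus strand with its end at 2751700, had 0.91 and 1.1 TPM in untreated and 11.9 and 8.91 TPM in vitamin C libraries. It rose by 2.49 on the log2(TPM + 1) scale (SE 0.26, limma with Benjamini-Hochberg, adjusted p = 0.0351). The minus-strand partner, which ends at 2751709, had 35.5, 34.5, 20.7 and 20.1 TPM. Its levels were lower in both vitamin C libraries, with a change of -0.75 (SE 0.19) that did not pass the test (adjusted p = 0.266, limma with Benjamini-Hochberg).

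Tail-to-tail on LG 9, gene_19267 on the plus strand from 1321191 to 1321726 had 61.6 and 82.4 TPM in untreated mycelium and 19.0 and 18.8 TPM with vitamin C. It fell by 1.86 on the log2(TPM + 1) scale (SE 0.20, limma with Benjamini-Hochberg, adjusted p = 0.0389). Without the trend of the variance it did not pass (adjusted p = 0.0957). All but 4 of its 536 bp lie within the minus-strand partner from 1321195 to 1323502, which had 19.0, 19.0, 21.7 and 15.8 TPM. The partner's values overlapped between conditions.

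**Figure D5:**
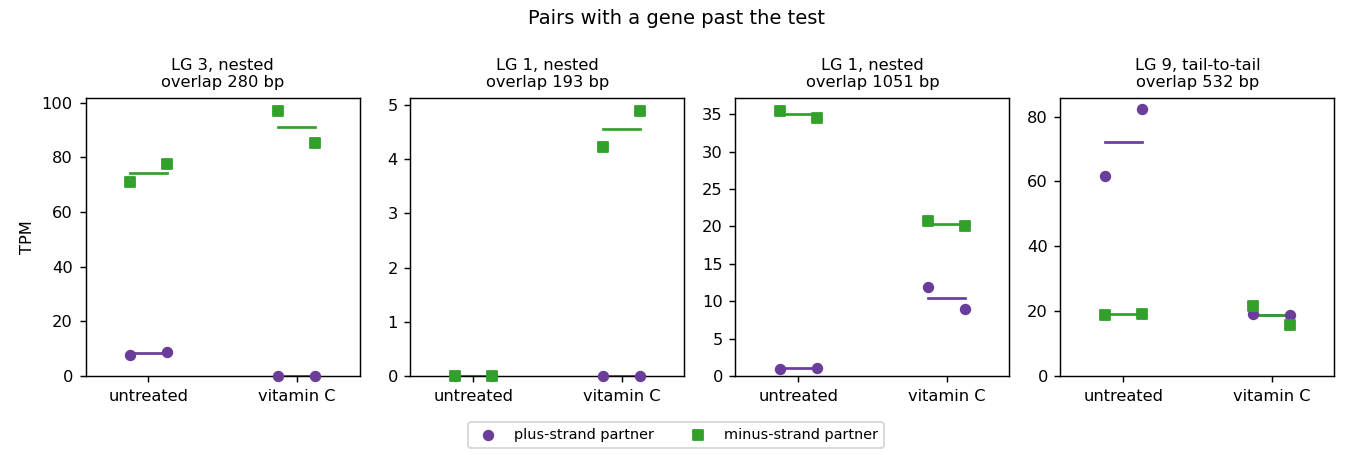
TPM of both partners in each library for the 4 pairs with a gene past the limma test (circles, plus strand, squares, minus strand, lines, means of 2 libraries). On LG 3 the plus-strand gene goes from 7.81 and 8.81 TPM to values listed at 0. On LG 9 the plus-strand gene goes from 61.6 and 82.4 to 19.0 and 18.8 TPM, while the partner stays between 15.8 and 21.7 TPM.

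The ratio of the partners was tested as well, since a pair in which one level rises and the other falls changes its ratio more than either level. The test covered 13660 overlapping or neighbouring pairs, among them 993 of the opposite-strand overlaps, and 0.0878% of all ratios passed. Of the overlapping pairs 2 passed, both described above. The log2 ratio of plus to minus strand on LG 3 changed by -3.51 (SE 0.24, limma with Benjamini-Hochberg, adjusted p = 0.0060), and by -6.69 with a pseudocount of 0.1. The ratio of gene_1190 to its partner on LG 1 changed by 3.24 (SE 0.26, limma with Benjamini-Hochberg, adjusted p = 0.0119). For gene_19267 it changed by -1.83 (SE 0.27, adjusted p = 0.121), which did not pass. At an unadjusted p under 0.05 there were 167 overlapping pairs (16.8%), next to 16.3% of all pairs.

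The changes of both partners with vitamin C were not related across pairs. They had the same sign in 544 of 993 pairs (54.8%), and their Pearson correlation was 0.01. It was 0.03 in tail-to-tail, 0.13 in head-to-head and -0.07 in nested pairs. The difference between the replicates of a condition, where no treatment effect enters, gave 0.05 in untreated and -0.05 in vitamin C libraries over the same pairs. Tail-to-tail and head-to-head neighbours had the same sign in 49.4% and 53.1% of pairs. Neither a common nor an opposite movement of overlapping partners was thus apparent.

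In 17 of the 852 pairs with both partners at 1 TPM or more (2.00%), one partner was the higher in both untreated libraries and the other in both vitamin C libraries. Over all 11077 such overlapping or neighbouring pairs the share was 2.55%. The 4 with the largest change of the ratio were on LG 10, LG 2 and LG 1. On LG 10 the plus-strand model from 66089 to 67818 had 22.8, 12.4, 45.7 and 36.9 TPM and the minus-strand model from 67076 to 68464 had 30.1, 23.5, 25.9 and 24.2 TPM. The log2 ratio changed by 1.32 (SE 0.27, limma with Benjamini-Hochberg, adjusted p = 0.189). On LG 2 the plus-strand model from 1585228 to 1590105 had 23.8, 31.5, 38.0 and 26.9 TPM and the minus-strand model within it, from 1588809 to 1590088, had 31.0, 41.1, 15.6 and 17.4 TPM.

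The 2 pairs on LG 1 changed in opposite directions. With vitamin C the plus-strand partner became the higher one in the tail-to-tail pair and the minus-strand partner in the nested pair. The tail-to-tail models from 5220992 to 5224630 (plus strand) and from 5222681 to 5224939 (minus strand) had 16.8, 16.6, 28.2 and 18.4 TPM and 21.2, 27.5, 15.1 and 12.6 TPM. The nested models from 5940475 to 5941961 (plus strand, inner) and from 5940443 to 5944459 (minus strand, outer) had 60.3, 70.9, 34.5 and 45.9 TPM and 43.5, 43.4, 61.0 and 52.4 TPM. None of these 4 ratios passed the test, with adjusted p from 0.189 to 0.207 (limma with Benjamini-Hochberg). Switches from 0 in both libraries of a condition to at least 1 TPM in both of the other were found for 4 paired genes, 1 of them on with vitamin C and 3 off. Over all genes 0.0692% did so.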

How the data were processed

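RNA-seq of *L. bicolor* mycelium was used, with 2 untreated and 2 vitamin C libraries grouped by their labels. Per the methods of the study, the authors used FastQC for quality control, BBDuk for trimming, hisat2 for mapping to the V2 genome, samtools markdup 1.12 for duplicates and StringTie 2.0.3 for the annotated genes. FastQC, HISAT2 and SAMtools are also listed in the submitters' processing notes. The deposited TPM values sum to 1000000 in each library and were used for all levels. FPKM as deposited, which is relative to model length and to the aligned bases, served in an alternative. The deposited coverage is the mean read depth of a gene and gave the aligned bases through its ratio to FPKM. None of these are whole counts of reads, and neither a count model nor a counting interval was used.

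Pairs were found from the positions with a minimum overlap of 1 bp. Neighbours were adjacent genes without overlap, and close ones had a gap of at most 500 bp. The comparison of conditions was fitted with limma 3.58.1 in R 4.3.3 (trend of the prior variance) on log2(TPM + 1), which understates changes of low genes, over all genes or pairs with a mean TPM of each gene above 0.05, and adjusted by Benjamini-Hochberg over all of them. The scripts were tested on simulated data. The remaining steps used pandas 2.3.3, numpy 2.4.6, scipy 1.17.1 and matplotlib 3.10.9 in Python 3.11.15. With 2 libraries per condition, p-values measure the spread between these samples only.

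The pairs and lists were chosen with earlier results of these data known. Pairs named per class were the 2 with the highest lower partner, the 2 with the highest partner beside one at 0 in all 4 libraries, and the 2 with the longest overlap and both partners expressed. Also named were all pairs with a call and 4 pairs with a switch of the higher partner. At the edge of the rule, 3 of the 5 pairs that share 1 bp and 3 adjoining pairs with no gap were named. Since identifiers carry no names, 2 identifiers per direction are printed. Alternatives covered the pseudocount, filters, scaling, variance trend, replicate block, left-out libraries, overlap minimum and thresholds. Sequences and exon positions were not used here.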

Additional observations from a re-analysis of the deposited data

How the results depend on the processing

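All 72 refits of the named changes kept their sign. This says little, since the changes were named for passing in these same libraries. Refits of the filter, the variance trend or the block left the size itself unchanged. In place of 4 paired genes, 1 passed without the filter on low values, which was not one of the 4, and 0 to 0 passed when a library was left out. With the replicate block 15 of 128 called genes were paired genes, and with the crossed pairing, chosen after seeing the data, 56 of 325. In place of 2 ratios, 0 passed without the filter and 2 to 6 with a library left out. Over all tested pairs 12 ratios passed in the main fit and 8 without the filter, and more passed in each fit with a library left out. The higher counts with a library left out were thus not particular to the overlapping pairs. Such fits also leave a condition with a single library. The block called 3 of 42 and the crossed pairing 36 of 319. gene_19267 was also lost without the trend of the variance. The median change of the paired genes changed sign when some libraries were left out, as given above. The difference between replicates 1 and 2 had a correlation of -0.26 between conditions over 15107 genes, no source ties equal numbers to a culture, and the cause of the higher counts was not tested. With expressed set at a mean of 1 TPM, pairs with a single expressed partner went from 81 to 192 (untreated) and from 96 to 204 (vitamin C), pairs with neither from 58 to 90 (vitamin C), the median ratio from 4.56 to 3.74, and pairs with a partner at 0 beside one of at least 1 TPM, in place of 10, from 22 to 40. With a minimum overlap of 50 bp, neither was expressed in 28 (untreated) and 27 (vitamin C) pairs and the median ratio was 4.72. The Spearman correlation of all pairs, 0.271 untreated and 0.252 with vitamin C, became 0.280 and 0.257 as Pearson's r, 0.139 and 0.121 with both partners expressed, 0.198 and 0.172 from 50 bp, and 0.279 and 0.260 for genes in 1 pair. In nested pairs the sign was not stable, and 0.0521 and 0.000569 became -0.0799 and -0.0756 with both expressed and -0.0316 and -0.0876 for genes in 1 pair. In single libraries these correlations were 0.268 to 0.269 and 0.247 to 0.248 for all pairs, 0.0407 to 0.0495 and -0.00706 to 0.000546 for nested pairs. With a library left out the median ratio was 4.41 to 4.57. Depth limits low genes, and reads on shared stretches rest on an unknown strand setting.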
